A study of Mus musculus with 2 samples.

Results

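The endoplasmic reticulum (ER) chaperones and the genes of the unfolded protein response were measured in bone marrow-derived macrophages (BMDMs), macrophages grown from mouse bone marrow. The genes were 36 members of a list drawn up by known functions, though with earlier results of these data known. It covers chaperones, protein disulfide isomerases, the protein-conducting channel of the ER and its partners, ER-associated degradation, and the stress sensors. The 36 members were read among 32448 genes and other identifiers on the array. One group was untreated BMDMs and the other was BMDMs treated with IL-4 for 18 h, IL-4 being the cytokine that drives macrophages toward the M2, or alternatively activated, state. By the study's methods the cells of both groups came from male mice, Crif1 f/f (homozygous for a floxed Crif1 allele) and 8 weeks old, and the methods name no Cre transgene for these arrays. Both groups were cultured for 7 days with M-CSF at 20 ng/ml, and 500 ng of total RNA was labelled with Cy3 for single-colour Agilent mouse arrays. The IL-4 dose used for the arrays is not given in the sources used here. The methods state replicates and mice per group for the experiments in general, without saying how many mice or cultures stood behind each array or whether their RNA was pooled.

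There was 1 array per condition, so no difference has a replicate check, no p-value is given, and each comparison is between these arrays rather than between the conditions. Levels are the log2 of the background-subtracted intensity minus the array's 75th percentile, which was 9.84 for untreated and 9.94 for IL-4-treated BMDMs. Differences are IL-4-treated minus untreated on that log2 scale, and the ± value is the SD of the difference between spots, taken from probes printed in 10 spots and of similar signal. This SD was between 0.04 and 0.19 for the members and leaves out the spread between cultures. The scanner software's own error, which is not part of the ± value, had a median of 10% of the members' intensity on each array. It reached 17.7% on the untreated and 13% on the IL-4 array. The IL-4 label was checked on the M2 marker genes: Arg1 was 216-fold higher after IL-4, Chil3 was 14.2-fold and Mrc1 was 5.33-fold, and Retnla, which was well above background after IL-4 only, was at least 595-fold higher. Of the macrophage markers 11 of 11 with a probe were clearly detected in both conditions, and their signal summed to 337 times the 75th percentile in untreated and 291 times in IL-4-treated BMDMs. Of these markers 6 were at least 0.5 lower after IL-4, with a median of -0.60 and Cd14 lowest at -1.42. Detected in both conditions were also 9 of 9 stromal markers, with sums of 360 and 331 that the bright Col1a1 and Col1a2 carried, while 5 of the 9 were above 0 and 3 at least 0.5 higher, Pecam1 highest at 0.61. So were 8 of 8 neutrophil markers, with sums of 43.1 and 38.4. Plasma cells are known for high ER chaperone expression. Of 8 plasma and B cell markers with a probe 3 were measured, with sums of 6.62 and 5.31, while Ms4a1, Cd79a, Jchain, Tnfrsf17 and Pou2af1 stayed near background throughout. Of 7 T cell markers 4 were measured, with sums of 1.28 and 1.01. The part that non-macrophage RNA has in the differences was not tested, and in bulk RNA fewer cells of a type and less RNA per cell cannot be told apart.

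Secreted and membrane proteins are threaded into the ER through the Sec61 channel, folded there by chaperones and disulfide isomerases, and, where folding fails, drawn back to the cytosol and degraded. When unfolded proteins build up, IRE1 splices the mRNA of the transcription factor XBP1, ATF6 is cut to release its own transcription factor domain, and PERK slows translation and favours ATF4. XBP1 and ATF6 then raise the genes for chaperones and degradation factors, many of which carry the ER stress response element in their promoters.

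All 36 members were well above background in both conditions by the scanner software's flag. After IL-4, 31 of the 36 lay above the median difference of the 17242 genes measured on both arrays, and 5 lay below it. The median difference of the members was 0.13 (quartiles 0.04 and 0.25), a 1.1-fold higher signal, against -0.01 for all genes (quartiles -0.19 and 0.14). The members thus sat 0.15 above the median gene. The difference was above 0 for 30 members, whereas 47.4% of all genes measured on both arrays were above 0. The 6 members below 0 were P4hb, Derl1, Derl2, Ern1, Serp1 and Edem2.

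The differences were small for most members, and 25 of the 36 lay between -0.25 and 0.25. At least 0.25 higher were 9 members, beside 16.1% of the 19743 genes measured on at least 1 array, and at least 0.25 lower were 2, beside 25.9% of those genes. At least 0.5 higher were 4 members, Pdia4, Derl3, Wfs1 and Creld2, beside 7.43% of all genes. No member, 0 of 36, was at least 0.5 lower, beside 13.6% of all genes. Among the genes measured on both arrays alone, as all the members were, 5.88% were at least 0.5 higher and 7.74% at least 0.5 lower. At the 2-fold mark, a difference of 1, there were 0 members in either direction, beside 2.86% of genes higher and 4.47% lower. The difference from the median gene exceeded the spot SD for 31 members, of which 28 were higher and 3 lower. The same count was not made over all genes, so it does not set the members apart. Above the upper quartile of all genes lay 16 members and below the lower quartile 2.

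**Figure D1:**
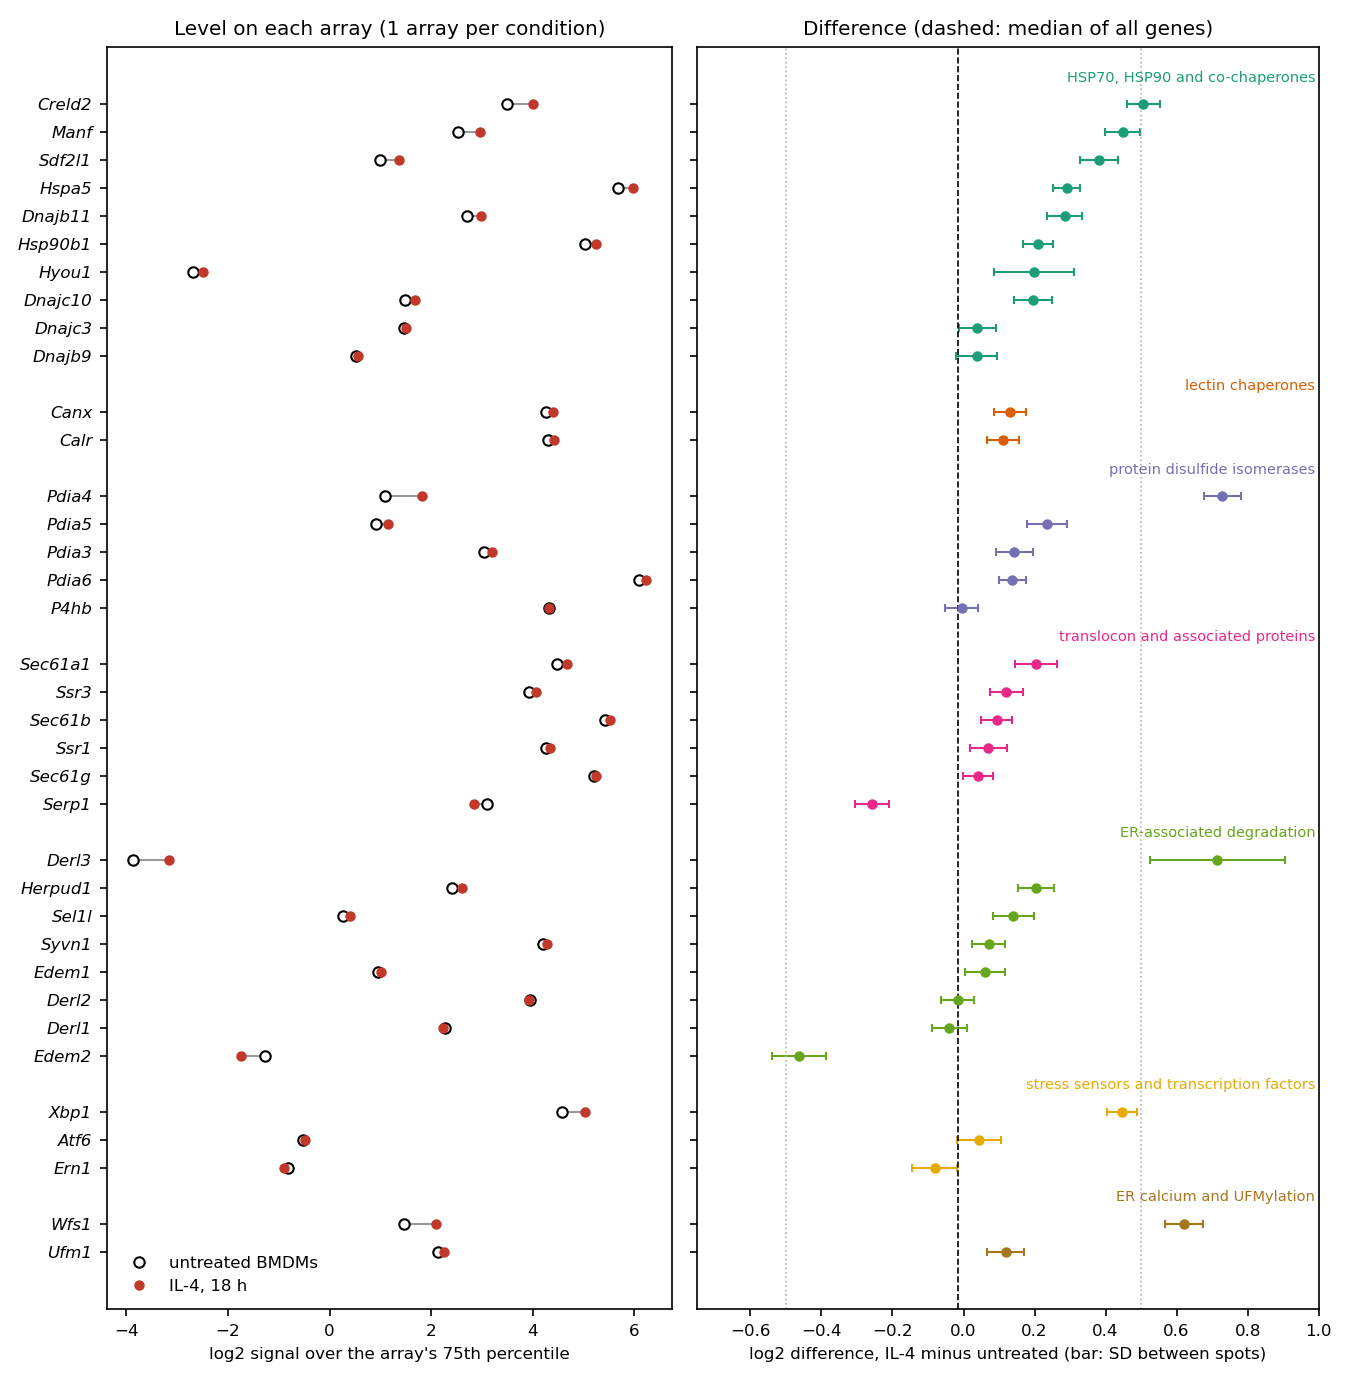
Levels of the 36 members in untreated (open circles) and IL-4-treated BMDMs (red), as log2 signal over the array's 75th percentile, and the log2 difference with the spot SD as a bar, by role. The 10 HSP70, HSP90 and co-chaperone genes all lie to the right of the median of all genes (dashed), Pdia4 is farthest right at 0.73 and Edem2 farthest left at -0.46; dotted lines mark 0.5 and -0.5.

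The size of the members' shift depended on how bright the genes compared with them were. The median difference of all genes moved with signal, from -0.19 in the dimmest unit of log2 level to 0.07 at a level of 4 to 5 and back to 0.01 in the brightest unit, and the members were mostly bright. Against the genes of their own unit of signal, between 468 and 2101 genes each, 27 members lay above the median and 9 below, with a median distance of 0.09. In those same bins 16 members lay above the upper quartile and 2, Serp1 and Edem2, below the lower quartile. Among the 4725 genes with a mean level between 1.14 and 4.32, the range of the middle 18 members, 58% had a difference above 0, against 14 of the 18 members, and 16.5% were at least 0.25 higher, against 6 of the 18. The medians there were 0.13 for the members and 0.04 for all genes.

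**Figure D2:**
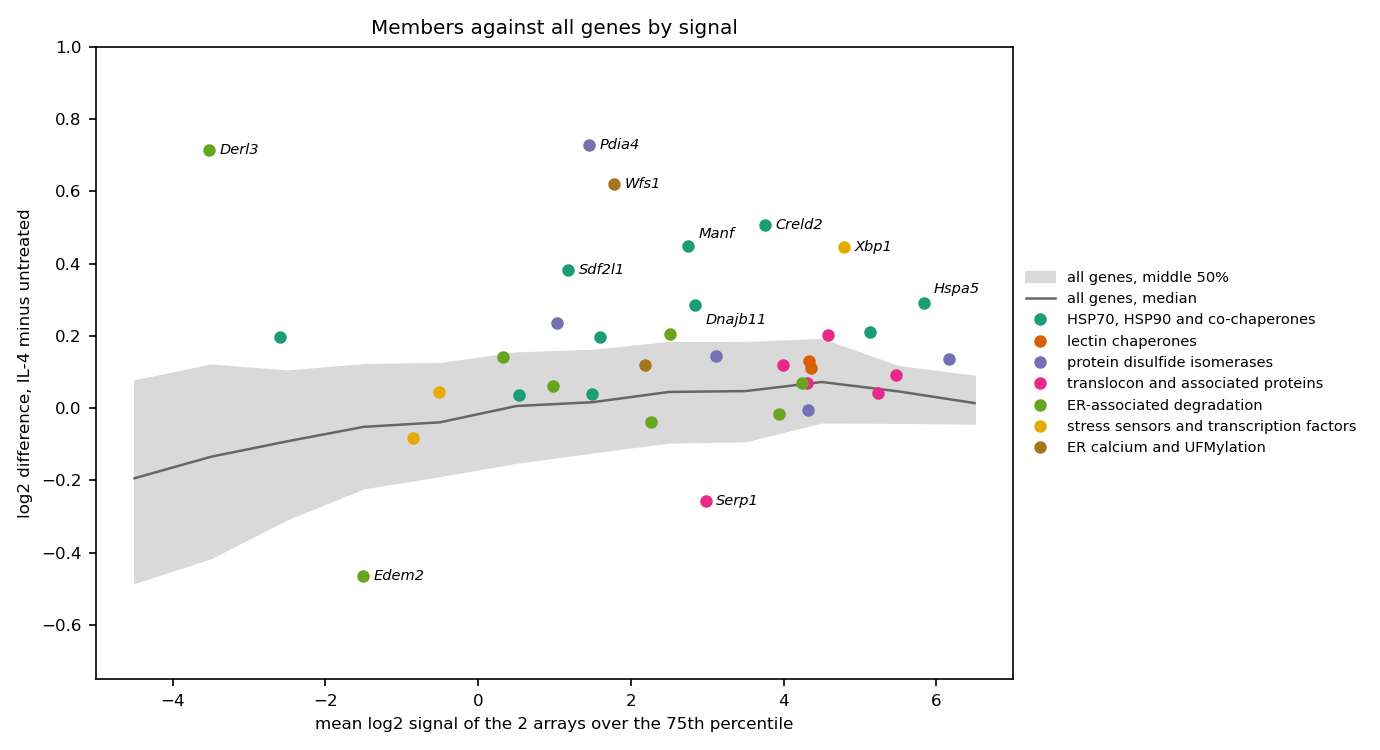
The log2 difference of each member against its mean log2 signal on the arrays, coloured by role, with the median (line) and middle 50% (grey) of all genes in bins of 1 log2 unit; the outermost bins also hold the genes beyond them. The grey median climbs from -0.19 to 0.07 at a level of 4 to 5 and is at 0.01 in the brightest bin, and 16 members lie above the band while Serp1 and Edem2 lie below it.

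The HSP70 and HSP90 chaperones of the ER, grouped with their partners and Creld2, had 10 of 10 above 0 and a median of 0.25. Among all genes measured on both arrays 47.4% were above 0. Dnajb9 and Dnajc3 differed from 0 by less than the spot SD. Hspa5, which encodes BiP, the HSP70 of the ER that also holds the stress sensors inactive, had levels of 5.69 without and 5.98 with IL-4, a difference of 0.29 ± 0.04. Hsp90b1, the HSP90 of the ER, went from 5.03 to 5.24, and Dnajb11, a J-domain co-chaperone of BiP, from 2.70 to 2.98. Each of these abundant genes was 1.16- to 1.22-fold higher after IL-4.

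Creld2, an ER stress-inducible protein of the ER lumen, was the most changed of this group. Its probe was printed in 10 spots, of which 9 were used, so its values have a spread of their own. The untreated levels ran from 3.41 to 3.58 with a mean of 3.5, and the IL-4 levels from 3.94 to 4.05 with a mean of 4.0. The spots of the arrays did not overlap, and the spot-by-spot difference ran from 0.46 to 0.56 with a mean of 0.51 and an SD of 0.03. Manf, a secreted ER protein that binds BiP, had levels of 2.52 and 2.97, 1.36-fold higher after IL-4. Sdf2l1, a partner of the BiP and J-domain complex, had levels of 0.99 and 1.37, 1.3-fold higher.

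The remaining co-chaperones moved less or gave uncertain values. Dnajc10, a J-domain reductase, differed by 0.20 ± 0.05 at its brightest probe and by 0.03 at its second. Hyou1, the nucleotide exchange factor of BiP, was dim, with intensities of 142 and 174, and its difference of 0.20 ± 0.11 became -0.10 when the background was corrected by normexp. Dnajc3 differed by 0.04 ± 0.05. Dnajb9 differed by 0.04 ± 0.06 at its brightest probe, whereas its second, dimmer probe gave -0.33 ± 0.19. The second probe of Dnajb11 did not rise well above background.

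The lectin chaperones calreticulin (Calr) and calnexin (Canx), which hold glycoproteins while they fold, differed by 0.11 and 0.13, each with a spot SD of 0.04 to 0.05. Their levels were 4.30 and 4.41 for Calr and 4.26 and 4.39 for Canx. Both lay between the quartiles of genes of their own signal.

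Of 5 protein disulfide isomerases, which form and rearrange disulfide bonds, 4 were above 0, beside 47.4% of all genes measured on both arrays. Their median was 0.14. Pdia4 had the highest difference of all 36 members. Its level was 1.09 on the untreated and 1.82 on the IL-4 array, a difference of 0.73 ± 0.05 or 1.66-fold, with 96.6% of measured genes below it. The other isomerases did not approach this value. Pdia5 differed by 0.24, Pdia3 by 0.14 and Pdia6 by 0.14, and the second probe of Pdia6 gave 0.13. P4hb, the founding protein disulfide isomerase, had levels of 4.32 on each array and a difference of -0.01 ± 0.05.

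Of the 6 translocon genes 5 were above 0, beside 47.4% of all genes measured on both arrays, with a median of 0.08. Against genes of their own signal, Sec61a1, Sec61b and Ssr3 lay above the median and Sec61g, Ssr1 and Serp1 below it. Sec61a1, the channel-forming subunit, differed by 0.20 ± 0.06, and the small subunits Sec61b and Sec61g by 0.09 and 0.04. Among the subunits of the translocon-associated protein complex, Ssr3 gave 0.12 and 0.16 at its probes. For Ssr1 the probes disagreed. Its brightest probe had levels of 4.27 and 4.34 and a difference of 0.07 ± 0.05, the next probe had levels of -1.21 and -1.22 and a difference of -0.01, and the dimmest had levels of -2.49 and -2.69 and a difference of -0.20 ± 0.11. This was the only one of 9 members with several measured probes whose probes lay on opposite sides of 0 by more than the spot SD. Serp1, a small protein bound to the channel that is known to be stress-induced, went the other way: its level was 3.11 on the untreated and 2.85 on the IL-4 array, a difference of -0.26 ± 0.05 or 1.2-fold lower.

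The 8 genes of ER-associated degradation were the most divided group, with 5 above 0, 3 below and a median of 0.07. Among all genes measured on both arrays 47.4% were above 0. Derl3, a derlin of the retrotranslocation complex, was 0.71 ± 0.19 higher, 1.64-fold, with levels of -3.88 and -3.17. It was the dimmest member, with intensities of 62 and 109, and its difference was 0.14 after normexp background correction. The other derlins did not follow it. Derl1 differed by -0.04 at each of its probes, and Derl2 by -0.02, -0.03 and 0.09 at its probes.

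Edem2, which trims mannose from misfolded glycoproteins, was the lowest of all members, with levels of -1.27 and -1.74 and a difference of -0.46 ± 0.08, 1.38-fold lower after IL-4. Its relative Edem1 differed by 0.06 ± 0.06. In the HRD1 ubiquitin ligase complex Herpud1, its scaffold, differed by 0.20, Sel1l, its adaptor, by 0.14, and Syvn1, the ligase itself, by 0.07.

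Among the stress sensors and transcription factors the difference lay in Xbp1. Its level was 4.57 on the untreated and 5.02 on the IL-4 array, a difference of 0.45 ± 0.04 or 1.36-fold, with 93.1% of measured genes below it. A total level does not separate its spliced from its unspliced mRNA. Ern1, which encodes IRE1, the enzyme that splices it, had levels of -0.81 and -0.89, a difference of -0.08 ± 0.06. Atf6 differed by 0.04 ± 0.06. Relative to the median gene these sensors stood at -0.07 and 0.06.

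Wfs1, which encodes wolframin, an ER membrane protein tied to calcium handling, had levels of 1.47 and 2.09, a difference of 0.62 ± 0.05 or 1.54-fold. Ufm1, the ubiquitin-like modifier that is attached to ribosomes at the ER, differed by 0.12 ± 0.05 at its brightest probe and by 0.27 and 0.44 at its dimmer ones, so all of its probes were above 0.

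Members known as targets of ATF6 and of XBP1 were compared as groups by name, with the assignment taken from general knowledge and each gene placed once although several answer to both. The 10 placed under ATF6, Hspa5, Hsp90b1, Calr, Pdia4, Hyou1, Herpud1, Sel1l, Creld2, Manf and Xbp1, were all above 0, with a median of 0.25 and a range from 0.11 to 0.73. Among all genes measured on both arrays 47.4% were above 0. Of these 10 members only Hyou1 changed sign in another setting, to -0.10 with normexp. Of the 6 placed under XBP1, Dnajb9, Dnajc3, Edem1, Serp1, Pdia6 and Dnajb11, 5 were above 0, with a median of 0.05 and a range from -0.26 to 0.29. Relative to the median gene the first group lay at least 0.27 above and the second at least 0.04 above in the settings tried. The difference between these groups was not tested. It depends on the placement, which was made with earlier results of these data known and left the other members in neither group. Among those left out were Derl3 at 0.71, Wfs1 at 0.62, Sdf2l1 at 0.38 and Edem2 at -0.46.

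The promoters of the members were searched for the elements through which these factors act, in the RefSeq table on GRCm38.p6, which gives 250 bases before to 50 after each gene start. Of the 36 members 31 were in the table, and Atf6, Derl1, Manf, Hyou1 and Sec61a1 were not. The ER stress response element was written as CCAAT and CCACG with 9 bases between them, on either strand. It was found in 9 of the 31 member promoters (29%), against 37 of 27025 genes with a promoter in the table (0.137%). The 37 genes include the 9 members. The list was drawn up from known genes of this response, many of which are known to carry the element. This excess therefore followed from the choice of the list and is not a result of these arrays. The windows shown span the range of differences among members that hold the element, from Derl3 and Creld2 through Hspa5 and Pdia6 to Dnajc3. They are read 5′ to 3′ on the gene's strand, and the capitals mark the element, which reads as its reverse complement in Derl3 and Creld2.
Derl3 (chr10:75893227-75893275, + strand): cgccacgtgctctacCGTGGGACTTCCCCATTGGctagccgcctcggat
Creld2 (chr15:88819505-88819553, + strand): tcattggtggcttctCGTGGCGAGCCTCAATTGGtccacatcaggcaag
Hspa5 (chr2:34772010-34772058, + strand): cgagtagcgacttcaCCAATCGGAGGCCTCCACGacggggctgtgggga
Pdia6 (chr12:17266476-17266524, + strand): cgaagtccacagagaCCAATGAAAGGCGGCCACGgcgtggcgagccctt
Dnajc3 (chr14:118937812-118937860, + strand): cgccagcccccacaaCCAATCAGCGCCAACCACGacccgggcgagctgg

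Between the element and the gene start lay 137 bases in Derl3, 107 in Creld2, 46 in Hspa5, 79 in Pdia6 and 86 in Dnajc3. The other members that held it were Hsp90b1, in a pair of copies, Calr, Canx and Syvn1. The 9 members with the element were all above 0, with a median of 0.14 and a range from 0.04 to 0.71. Beside them, 47.4% of all genes measured on both arrays were above 0, and 58% of those with a level between 1.14 and 4.32. The 0.71 was that of Derl3, which gave 0.14 with normexp. Against genes of their own signal, Syvn1, Dnajc3, Calr and Canx lay between the quartiles and the others above the upper quartile. Of the 22 members without the element 17 were above 0, with a median of 0.12 and a range from -0.46 to 0.73. The groups thus overlapped over most of their range, and Pdia4, Wfs1 and Xbp1 were among those without the element. Outside the members, 7 genes that held the element were measured on both arrays, with a median of 0.02 and a range from -0.88 to 0.20. A match is a description of the letters in this window and not of binding.

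A second form of the element, ATTGG and CCACG 1 base apart, was found in Herpud1 and Dnajb11, against 0.0444% of genes. Here too the excess followed from the choice of the list. In Herpud1 41 bases lay between this form and the gene start, whereas in Dnajb11 it lay from 7 to 17 bases past the gene start. The differences of these genes were 0.20 and 0.29. The capitals mark it in these windows.
Herpud1 (chr8:94386362-94386402, + strand): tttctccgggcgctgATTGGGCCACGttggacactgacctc
Dnajb11 (chr16:22857837-22857877, + strand): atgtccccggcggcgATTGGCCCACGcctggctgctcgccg

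The core of the XBP1-type element, TGACGTGG on either strand, was in 0 of 31 member promoters, against 0.714% of genes. A STAT6-type site, TTC and GAA 3 or 4 bases apart, was in 3 of 31 (9.68%), Pdia5, Edem2 and Sec61g, against 16.6% of genes. Their differences were 0.24, -0.46 and 0.04. The XBP1-type core ends in CGTGG, the reverse complement of CCACG, so it can overlap both forms of the ER stress response element.

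The rest of the ER machinery was read from 9 further lists with 149 genes, of which 145 were measured in both conditions. Of these 94 were above 0, 2 were at least 0.5 higher and 0 at least 0.5 lower, with a median of 0.06. Among all genes measured on both arrays 47.4% were above 0, 5.88% at least 0.5 higher and 7.74% at least 0.5 lower. At levels between 1.14 and 4.32, 58% of genes were above 0. These lists were not compared with genes of their own signal, so a shift that comes with brightness is not separated here. Both genes past 0.5 belonged to the list called the PERK arm, after the branch that slows translation and raises ATF4 and its targets. The 12 genes of this list had a median of 0.25, with 9 above 0. Atf3, a stress-induced transcription factor downstream of ATF4, had levels of 2.79 and 4.24, a difference of 1.44 ± 0.05, which was larger than that of any member. Ddit3, which encodes the stress factor CHOP, had levels of -0.01 and 0.66, a difference of 0.67 ± 0.06. Eif2ak3, which encodes PERK itself, was the lowest of the list at -0.08 ± 0.06. Sesn2 and Ppp1r15a were also below 0, at -0.05 and -0.04. Whether PERK stands behind the values of this list was not tested.

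The 24 genes of transport between the ER and the Golgi had a median of 0.10 with 21 above 0, from -0.12 for the retrieval receptor Kdelr1 to 0.37 for the coat subunit Sec24a, and 0 past 0.5 either way. The 12 genes of the oligosaccharyltransferase, which adds sugar chains to new proteins, had a median of 0.07, with 0 past 0.5, from -0.13 for Dad1 to 0.43 for Stt3b, a catalytic subunit. The 20 other genes of translocation and signal peptide cleavage had a median of 0.05, with 0 past 0.5, from -0.18 for Tram2 to 0.47 for Spcs2, a signal peptidase subunit.

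The remaining lists held 0 genes past 0.5. Of 35 other folding factors 32 were measured, with a median of 0.02, from -0.44 ± 0.25 for the dim Fkbp11 to 0.27 for Dnajc1. The 20 other degradation genes had a median of -0.0001, from -0.08 for Erlec1 to 0.28 for Selenos. Of 10 other stress sensors and their proteases 9 were measured, with a median of 0.07, from -0.43 for Creb3l4 to 0.44 for Creb3l3. The 7 other genes of UFMylation had a median of 0.06, from -0.14 for Ddrgk1 to 0.07 for Ufsp1. The 9 genes of ER calcium handling had a median of 0.02, from -0.43 for the IP3 receptor Itpr1 to 0.13 for the calcium pump Atp2a2. Relative to the median gene, the medians of these lists did not keep 1 sign over the settings: the folding, degradation and UFMylation lists reached -0.05, -0.02 and -0.02 with quantile normalization, the sensors -0.07 with the median over probes, and the calcium list -0.07 with normexp. The PERK arm was never less than 0.19 above the median gene, and the transport list never less than 0.04.

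**Figure D3:**
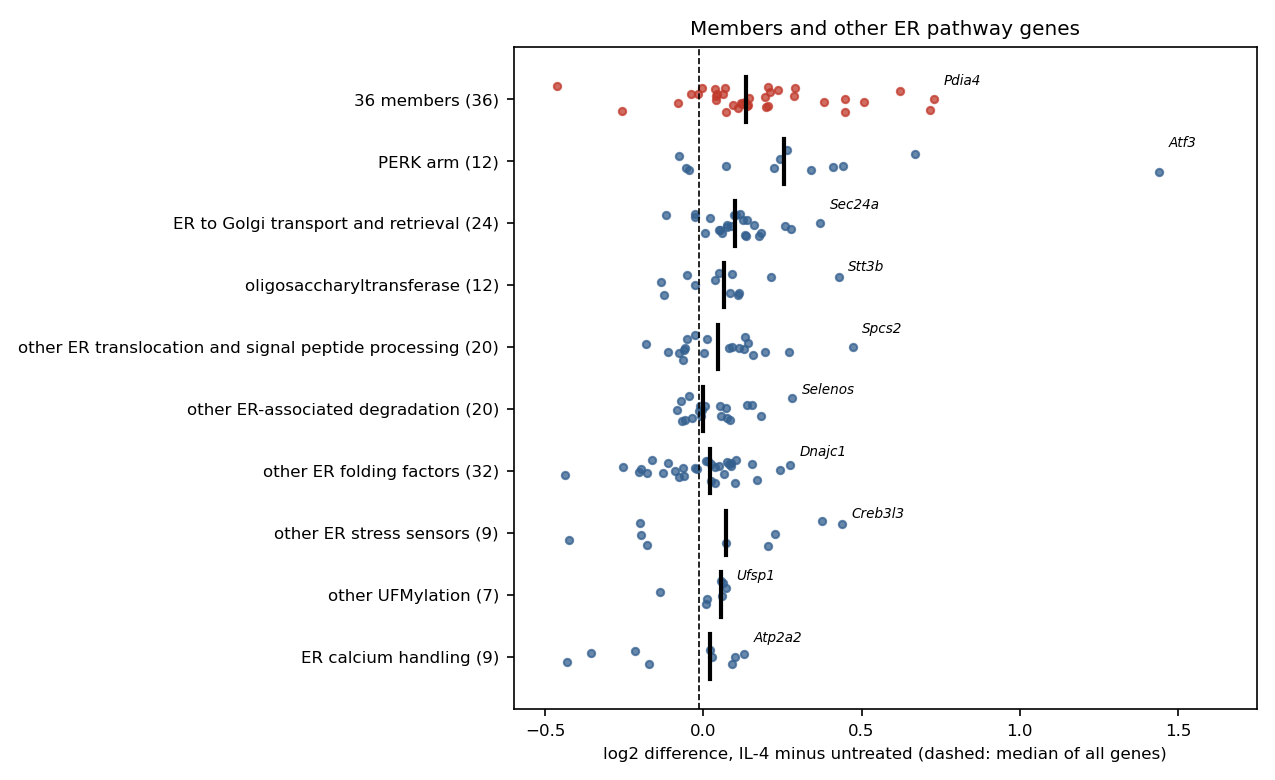
Log2 differences (IL-4 minus untreated) of the 36 members and of the measured genes of the 9 other ER lists, with the number of genes in brackets; each dot is a gene, spread vertically at random, bars are list medians and the dashed line is the median of all genes. The gene with the highest difference of each list is named; Atf3 of the PERK arm at 1.44 lies beyond every member.

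How the arrays are scaled sets the absolute differences. The median gene moved from -0.01 to 0.20 when the arrays were scaled on their medians and to 0.31 when they were scaled on 7 spike-in control probes, and such a shift leaves positions relative to the median gene as they are. Across all genes the split of at least 0.5 higher and lower was 14.3% and 8.34% with median scaling and 21.7% and 6.64% with spike-in scaling. Over 11 other settings, leaving out the one with no filter on dim probes because undetected genes then enter the median gene, 28 of the 36 members stayed on 1 side of the median gene, 25 above and 3, Ern1, Serp1 and Edem2, below. Of these settings only quantile normalization, cyclic loess, normexp and the median over probes moved the members' median relative to the median gene. The share of all genes that stayed on 1 side was not counted. With no filter the median gene was at -0.14, and 34 of the 36 members lay above it, Ern1 at -0.08 included. The 8 that crossed it in some setting were P4hb, Dnajb9, Syvn1, Derl1, Derl2, Hyou1, Sec61g and Ssr1.

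The highest members varied little, apart from Derl3. Relative to the median gene, Pdia4 ranged from 0.71 to 0.83 over these settings, Wfs1 from 0.59 to 0.69, Creld2 from 0.45 to 0.57, Xbp1 from 0.37 to 0.52 and Manf from 0.40 to 0.50. Derl3 ranged from 0.19 to 0.91. At the other end Edem2 ranged from -0.45 to -0.32 and Serp1 from -0.31 to -0.23. Among the role groups, the median of the translocon genes was -0.0029 from the median gene with quantile normalization, whereas that of the HSP70, HSP90 and co-chaperone genes was 0.24 above it with quantile normalization, the lowest value over the settings.

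**Figure D4:**
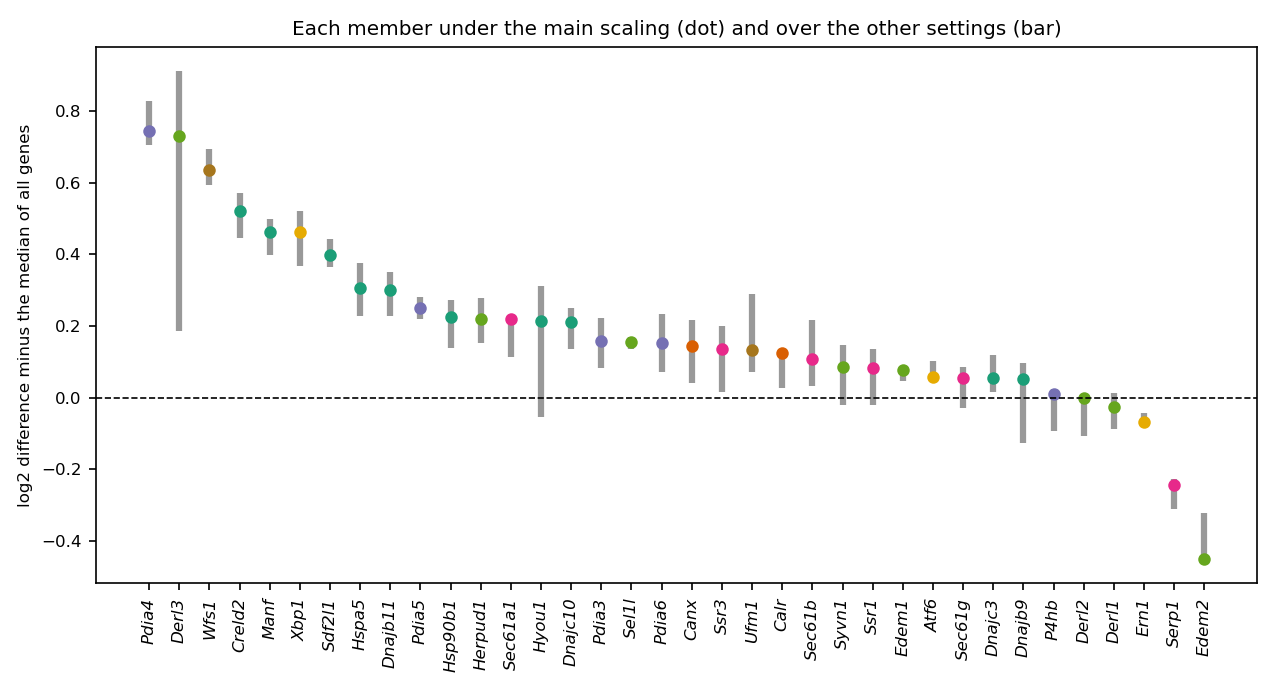
Each member's log2 difference minus the median of all genes, with the main scaling (dot, coloured by role as in the plot by role) and its lowest to highest value over 11 other settings (grey bar, without the setting that has no filter on dim probes). Pdia4, Wfs1, Creld2, Manf and Xbp1 stay at or above 0.37 throughout, Derl3 spans 0.19 to 0.91, and Ern1, Serp1 and Edem2 stay below 0 in these settings.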

How the data were processed

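The authors deposited the scanner output of 2 single-colour arrays from Feature Extraction 10.10.1.1 along with a table of processed log2 values. The deposited intensity of a spot had its background removed and spatial trends taken out by that software, and no scaling between the arrays. The differences of 49 member probes in that deposited log2 table equalled the scanner ones to within 1.2e-06 after a constant offset. The depth of an array is its signal over background: 59.8% of gene spots were well above background on the untreated and 57.4% on the IL-4 array, and 0 were saturated.

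Here control spots and outlier spots were left out, the log2 intensity of the spots of a probe was averaged, and each array's 75th percentile was subtracted. A gene was read from its brightest probe, and a probe well above background on 1 array gave a lower bound. Symbols came through RefSeq accessions (27237 of 39429 probes, 20662 symbols). The SD between spots came from 386 probes printed in 10 spots, and 3 to 82 of them stood behind each member's value. The array design was annotated on mm9, so coordinates are given only for promoters, from the GRCm38.p6 table. The difference step was tested on simulated data.

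The members, lists, motifs and alternatives were chosen with earlier results of these data known. The genes named are the 36 members, the highest and lowest gene of each other list, and the M2 markers. Ddit3, Sesn2, Ppp1r15a and the other cell type markers printed were named after their values were seen. One item of a marker list is not reported here. Alternatives were other scalings, normexp with an offset of 50 on the median pixel intensity, other rules for probes and filters, and the authors' table. Python 3.11.15, numpy 2.4.6, pandas 2.3.3, matplotlib 3.10.9, R 4.3.3 and limma 3.58.1 were used.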

Additional observations from a re-analysis of the deposited data

How the results depend on the processing

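The number of members above the median gene, 31 of 36 in the values given, was 27 with quantile normalization, 29 with cyclic loess and 34 with no filter on dim probes, and 31 in the other settings. The distance of the members' median from that of all genes, 0.15, was 0.077 with quantile normalization, 0.083 with cyclic loess, 0.21 with normexp and 0.28 with no filter on dim probes, where undetected genes enter the median of all genes. The 4 members at least 0.5 higher became 8 with median scaling and 15 with spike-in scaling, which shift all genes upward. They became 3 in each of 4 settings: Creld2 fell below 0.5 with quantile normalization, at 0.43, with cyclic loess, at 0.47, and with the 75th percentile of detected probes, at 0.45, and Derl3 did with normexp, at 0.14. The count at least 0.5 lower went from 0 to 1, Edem2 at -0.52, with the 75th percentile of detected probes. No member past 0.5 changed sign in any of the 12 settings, and 12 of the 36 members changed sign in at least 1 of them. For the 4 members past 0.5 most settings were little check of the sign. Apart from quantile normalization, cyclic loess and normexp, they shifted all genes alike or left these members at nearly the same value. No paired analysis was possible because there was 1 array per condition, and for the same reason none could be left out. Signal over background limits Derl3 and Hyou1 most. The planned comparison of protein C-terminal tails was not run.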
